A study of Homo sapiens with 7 samples.

Results

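The microRNAs described here are those whose mature name runs from miR-3000 to miR-4999. The deposited table lists 480 mature names, and 88 of them carry such a number. miR-3195, miR-4492 and miR-4497 were left out by the rule that defines the set, so 85 members remained, each represented by its row with the most reads. Small RNA was sequenced from 7 captures in A375, a human melanoma cell line, which was fixed in 1% formaldehyde (10 min) at 24 h from seeding and taken through miR-CATCHv2.0. In that method probes pull down a chosen mRNA and the microRNAs held on it are read. Here they aimed at the X1 form of the mRNA for the kinase BRAF, through its 3' UTR: 3 captures used the ODD probe set, 3 used the EVEN probe set, and 1 used scrambled probes as the control. ODD and EVEN captures together are called X1-probe libraries. All 7 share the cell line, the fixation and the protocol, and the control has no replicate.

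MicroRNAs are short RNAs that Argonaute proteins load and use to find partly complementary sites, mostly in 3' UTRs, with bases 2 to 8 of the microRNA (the seed) leading the pairing. Mature names are numbered in the order of their entry into the registry, so high numbers mark late entries. Late entries came largely from deep sequencing, are often read at low levels, and include many that overlap snoRNA, tRNA or rRNA sequence and have weaker evidence of processing by Drosha and Dicer than older families. Many of those from miR-3115 to miR-3202 were first reported from a sequencing survey of melanoma samples.

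The members that held most reads are shown with their mature sequence, seed in capitals, so that shared seeds and nested entries can be seen. Sequences and GRCh38.p14 positions are from RefSeq, whose table matched 67 of the 85 members (78.8%, under the 80% needed for a check of base composition, which is therefore void). The 3 entries with the seed of miR-3180-3p stand together, and miR-3180 is wholly contained in miR-3180-3p.
miR-4449: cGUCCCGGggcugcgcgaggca
miR-3180-3p: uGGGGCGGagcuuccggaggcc
miR-3180: uGGGGCGGagcuuccggag
miR-3196: cGGGGCGGcaggggccuc
miR-3180-5p: cUUCCAGAcgcuccgccccacgucg
miR-3651: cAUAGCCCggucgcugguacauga
miR-4454: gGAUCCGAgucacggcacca
miR-3648: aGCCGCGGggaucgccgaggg
miR-3605-5p: uGAGGAUGgauagcaaggaagcc
miR-3605-3p: cCUCCGUGuuaccuguccucuag

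Positions inside a gene refer to its whole span; exon, intron and orientation to the host were not read. The values are RPM, reads scaled to a library total of 1000000, so they are shares and would not show a change in the total amount captured. The libraries held 4049 to 35508 reads over all rows, and 1 read was worth 28.2 RPM in the deepest and 247 RPM in the shallowest X1-probe library, and 215 RPM in the scrambled library. The deepest was ODD replicate 2, and the shallowest were replicate 3 of both probe sets and the scrambled library. miR-204-5p, a microRNA of pigment cells, had 1352 to 2937 RPM in the X1-probe libraries and 861 RPM in the scrambled library, while its relative miR-211-5p was not among the listed names. Of 18 markers of blood, epithelium, muscle, neurons and liver, 11 were listed, and their summed level was 861 to 1976 RPM in the X1-probe libraries and 2152 RPM in the scrambled library, where 8 of the 11 were at 0; their part in the results below was not tested.

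The members were a small part of what was captured. Their summed share of the deposited reads was 2.05%, 1.49% and 1.88% in ODD replicates 1 to 3 and 1.58%, 2.01% and 2.37% in EVEN replicates 1 to 3. With scrambled probes it was 2.24% (104 reads, exact Clopper-Pearson 95% interval 1.83% to 2.71%, counting error only). The scrambled value lay inside the range of the X1-probe libraries, whose mean was 1.90% ± 0.325 (SD, n = 6). ODD libraries had 1.81% ± 0.287 and EVEN libraries 1.99% ± 0.395 (SD, n = 3 each), with overlapping ranges. Names from miR-500 to miR-1999 (98 in all) took 3.23% ± 0.246 of the reads with X1 probes (SD, n = 6) and 4.02% with scrambled probes. Names from miR-5000 up (69) took 1.23% ± 0.219 and 1.40%. Differences between these number ranges were not tested.

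The deepest library held the most members, though the order did not follow depth throughout. At least 1 read was found for 40, 53 and 28 members with ODD probes (replicates 1, 2 and 3, the order used throughout), for 28, 41 and 24 with EVEN probes and for 24 with scrambled probes. Brought by rarefaction to 3046 reads, the smallest total with 1 row per name, the expected number was 25.96, 21.3 and 28.0 for ODD, 20.8, 23.0 and 22.8 for EVEN and 22.4 for scrambled probes. ODD replicate 3, the shallowest, had as many members as EVEN replicate 1 and more than EVEN replicate 3 or the scrambled library. At the common depth the deepest library, ODD replicate 2, no longer had the most members, and the scrambled library stood among the others. Each detected member had 9.98 reads on average in ODD replicate 2 and 2.71 in ODD replicate 3.

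**Figure D1:**
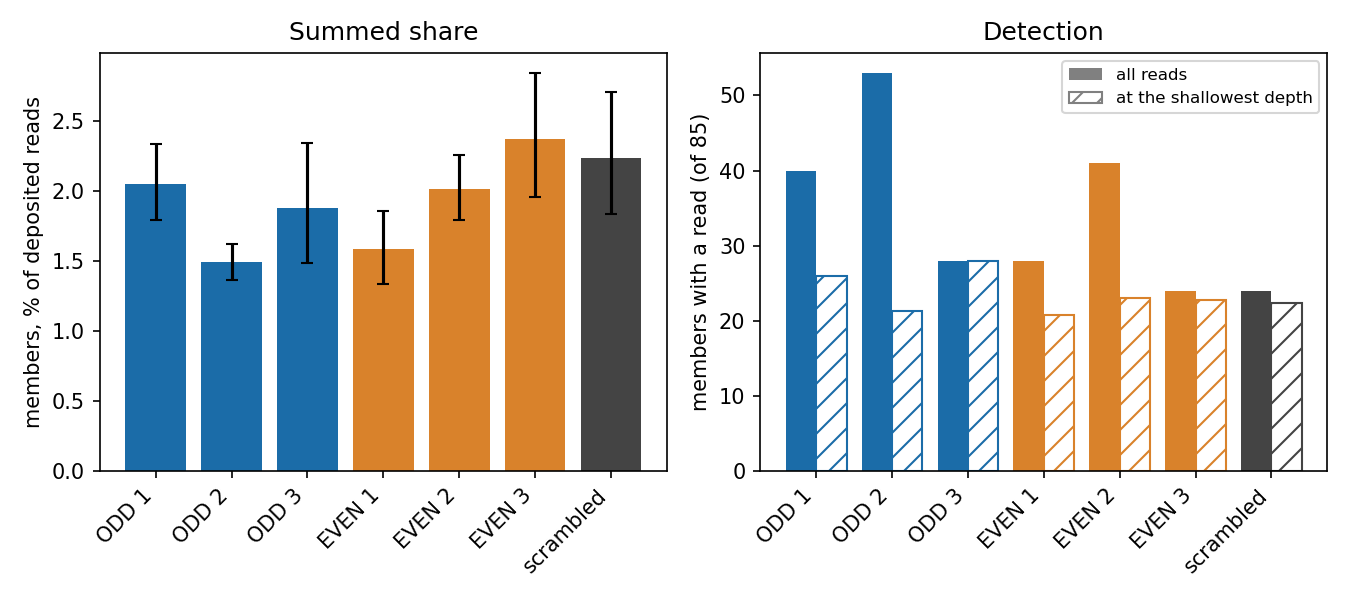
Left, the summed share of the 85 members in each library as a percent of deposited reads, with exact 95% intervals that cover counting error only. Right, members with at least 1 read in each library (filled) and the number expected at 3046 reads (hatched); the filled bars run from 24 to 53 and the hatched ones from 20.8 to 28.0.

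Most members were seen in few captures. Of the 85, 41 (48.2%) had reads in a single library, 17 of these in ODD replicate 2 alone, and 30 (35.3%) were known from 1 read in all. Over all 480 names 35.4% were found in a single library and 27.1% from 1 read. At the other end, 12 members (14.1%) had reads in all 7 libraries, against 22.3% of all names. Sparse detection was not particular to the members. Of names from miR-500 to miR-1999, 14.3% had reads in all 7 libraries and 33.7% were known from 1 read. Of those from miR-5000 up, the shares were 8.70% and 46.4%, and of names under miR-500 they were 33.8% and 15.3%. The median member had 2 reads over the 7 libraries and the median of all names was 4.

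**Figure D2:**
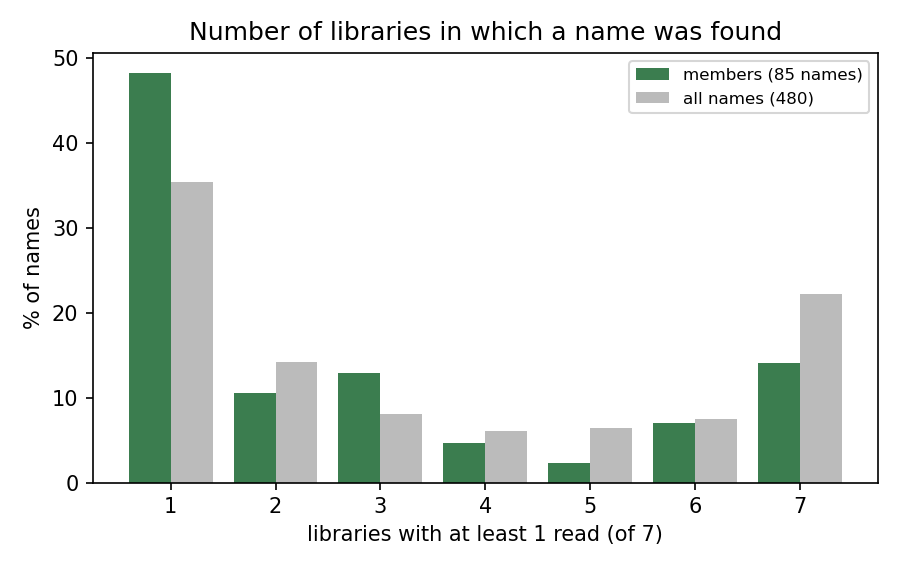
Percent of names (vertical axis) by the number of libraries in which they had at least 1 read (horizontal axis), for the 85 members and for all 480 names. Members peak at 1 library, with 48.2% of names against 35.4%, and 14.1% against 22.3% reach all 7. Other number ranges are not drawn apart.

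Reads within the set were concentrated in a few entries. The members held 1483 reads in all, and 20 of them had 10 or more. The 3 with the most, miR-4449, miR-3180-3p and miR-3180, held 43.0% of the reads and the 10 with the most held 76.4%. Some of these reads may be counted under both miR-3180-3p and miR-3180, as given below. By arm, 49 names without a -5p or -3p suffix held 75.1% of the reads, 20 names with -3p held 17.9% and 16 names with -5p held 7.08%. Names without a suffix are those for which the registry lists a single mature product.

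miR-4449 was the strongest member. Its mature sequence lies at chr4:52712720-52712741 on the plus strand, inside the span of DANCR, a long noncoding RNA known for holding progenitor cells undifferentiated. Its level was 3142, 3380 and 3211 RPM in ODD replicates 1 to 3, 2475, 4002 and 5244 RPM in EVEN replicates 1 to 3, and 4949 RPM (23 reads) with scrambled probes. It had the most reads of any member in 5 of the 7 libraries, while in EVEN replicate 1 it had fewer than miR-3180-3p and in the scrambled library the same number. The ODD libraries lay close together, at 3244 ± 122 RPM, and inside the range of the EVEN libraries, at 3907 ± 1387 RPM (SD, n = 3 each). Against scrambled probes the log2 difference was -0.51 on the log2(RPM + 10) scale (limma, 95% interval -1.36 to 0.34, adjusted p = 0.673).

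miR-3180-3p, miR-3180 and miR-3196 share the seed GGGGCGG in bases 2 to 8. Together they held 365 of the 1483 reads, some of which may be counted under both miR-3180-3p and miR-3180. miR-3180-3p (listed first at chr16:16309936-16309957, plus strand, inside the span of an uncharacterised noncoding RNA) comes from hairpins repeated along chromosome 16, and the RefSeq table lists 2 loci for it and 2 for miR-3180. miR-3196 lies at chr20:63238788-63238805 on the plus strand, inside the span of BIRC7, which encodes livin, an inhibitor of apoptosis also known as melanoma IAP.

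miR-3180-3p was at 2680, 1295 and 2470 RPM in ODD replicates 1 to 3 and at 2906, 2484 and 3986 RPM in EVEN replicates 1 to 3. With scrambled probes it was at 4949 RPM, from 23 reads (exact 95% interval 3140 to 7417 RPM). All 6 X1-probe libraries were below the scrambled one, with a log2 difference of -0.98 (limma, SE 0.46, 95% interval -1.92 to -0.041, adjusted p = 0.526), which did not pass. EVEN replicate 3 lay inside the scrambled interval and the other X1-probe libraries below it. miR-3180 ran alongside, at 1756, 1014 and 2223 RPM with ODD, 2260, 2139 and 3566 RPM with EVEN and 3873 RPM with scrambled probes. It too was below the scrambled library in 6 of 6 libraries, with a log2 difference of -0.93 (limma, SE 0.49, adjusted p = 0.660). Reads of miR-3180 were 65.5% to 90.0% of those of miR-3180-3p in every library, and since its whole sequence lies inside miR-3180-3p, the same reads may have been counted under each name; the counting rule is not given in the sources used here, and these 2 values are not independent.

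Between probe sets, miR-3180-3p was at 2148 ± 746 RPM for ODD and 3125 ± 775 RPM for EVEN libraries (SD, n = 3 each), and the ranges overlapped. Its log2 difference was -0.58, and that of miR-3180 was -0.70 (limma, adjusted p = 0.909 for each). Without ODD replicate 2, the lowest library for both, they were -0.25 and -0.39. miR-3196 was much weaker, with 3, 9 and 0 reads with ODD, 1, 9 and 1 with EVEN and 1 with scrambled probes. The summed level of the 3 entries was 5041 ± 1665 RPM over the X1-probe libraries (SD, n = 6), against 9038 RPM in the scrambled one, and all 6 X1-probe libraries lay below it. Reads counted under both miR-3180-3p and miR-3180 would enter this sum more than once.

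**Figure D3:**
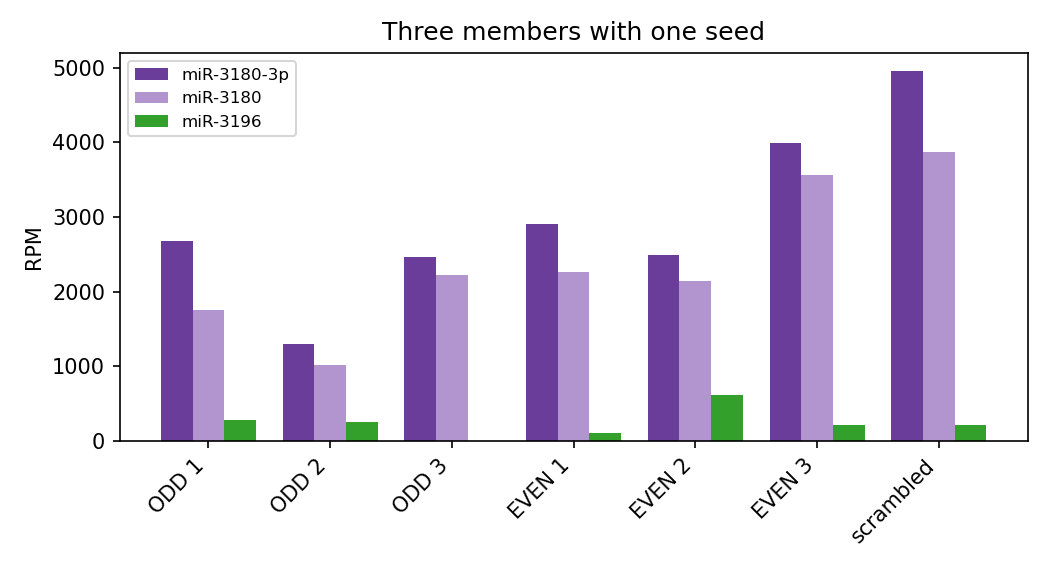
RPM (vertical axis) of miR-3180-3p, miR-3180 and miR-3196, which share a seed, in each of the 7 libraries. miR-3180-3p and miR-3180 stand at 4949 and 3873 RPM in the scrambled library, above each X1-probe library, and are lowest in ODD replicate 2 at 1295 and 1014 RPM.

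The other strand of the miR-3180 hairpins was rarer. miR-3180-5p (listed first at chr16:14911237-14911261, plus strand) was read 1, 11 and 2 times with ODD, 4, 2 and 3 times with EVEN and 0 times with scrambled probes. It was the single member with reads in all 6 X1-probe libraries and none with scrambled probes. Its mean of 349 ± 209 RPM (SD, n = 6) was under the 646 RPM that 3 reads are worth in the scrambled library, so no fold is given. The fitted log2 difference of 4.89 (limma, SE 1.78, adjusted p = 0.310) did not pass and its size is set by the pseudocount.

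A list of names taken from general knowledge as overlapping structural RNA held 13 members and 29.3% of member reads. Among the listed members with a RefSeq position, a host listed as a structural RNA gene was found for miR-3651 alone. Other listed members, miR-3687, miR-4508 and miR-4532 among them, had no position to look up. miR-4485-3p lay inside the span of MTRNR2L8, listed as a pseudogene, whose sequence was not examined. Beyond these spans, overlap with structural RNA was not checked here. Of the 13, 7 had 10 or more reads, and their median was 16 reads, against 2 over all members. miR-3651 had the most. It lies at chr9:92292461-92292484 on the minus strand, inside the span of SNORA84, a small nucleolar RNA that in turn lies in IARS1. Its level was 1848, 1380 and 1482 RPM in ODD replicates 1 to 3, 1076, 1449 and 839 RPM in EVEN replicates 1 to 3, and 1722 RPM (8 reads) with scrambled probes. ODD and EVEN libraries overlapped, and the scrambled library stood within the ODD range.

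miR-3687 and miR-3648 are known, as background, for sequence of the spacer of the ribosomal RNA precursor. miR-3687 was at 1756, 817 and 494 RPM with ODD, 538, 1518 and 1049 RPM with EVEN and 861 RPM with scrambled probes. It varied more within each probe set than between them, at 1022 ± 655 RPM for ODD and 1035 ± 490 RPM for EVEN libraries (SD, n = 3 each). miR-3648 (chr21:8987026-8987046, plus strand) was weaker, with 4, 6 and 2 reads with ODD, 1, 1 and 1 with EVEN and 1 with scrambled probes.

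miR-4454 (chr4:163093607-163093626, minus strand), whose sequence ends in CCA like the tail of a transfer RNA, was at 1294, 1183 and 247 RPM with ODD, 323, 966 and 629 RPM with EVEN and 430 RPM with scrambled probes. Its lowest value rests on 1 read, in the shallow ODD replicate 3. miR-4508 was at 1478, 507 and 741 RPM with ODD, 969, 483 and 1259 RPM with EVEN and 646 RPM with scrambled probes. miR-4532 was at 370, 310 and 494 RPM with ODD, 430, 828 and 839 RPM with EVEN and 215 RPM, a single read, with scrambled probes. It was above the scrambled library in 6 of 6 libraries, but the scrambled read allows up to 1198 RPM, and the log2 difference did not pass (limma, 95% interval -0.83 to 3.23, adjusted p = 0.673). miR-4516, inside the span of PKD1, had 0, 8 and 0 reads with ODD, 5, 4 and 0 with EVEN and 1 with scrambled probes.

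Of the 13 names on the list, 10 were tested against scrambled probes and 0 passed, with a median log2 difference of 0.47 against 0.096 over all 242 tested names; 3 of the 10 (miR-3607-3p, miR-4485-3p and miR-3653-3p) had no scrambled read. Their summed level was 7300, 4759 and 4446 RPM with ODD, 4305, 5865 and 5035 RPM with EVEN and 4304 RPM (20 reads) with scrambled probes. The scrambled value was the lowest of the 7, by under 1 RPM from EVEN replicate 1.

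miR-3605 is a hairpin inside the span of PHC2, a Polycomb group gene, and both of its arms were read. miR-3605-5p (chr1:33332449-33332471, minus strand) was read 2, 18 and 1 times with ODD, 7, 20 and 2 times with EVEN and 1 time with scrambled probes. In RPM that was 313 ± 171 with ODD and 851 ± 488 with EVEN probes (SD, n = 3 each), with overlapping ranges. miR-3605-3p (chr1:33332405-33332427, minus strand) had 3, 16 and 3 reads with ODD, 3, 6 and 0 with EVEN and 0 with scrambled probes.

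The 3p arm made up 60.0%, 47.1% and 75.0% of miR-3605 reads in ODD replicates 1 to 3 and 30.0%, 23.1% and 0% in EVEN replicates 1 to 3. The ranges did not overlap. This ratio was looked at after its values were seen and rests on 43 reads with ODD and 38 with EVEN probes, in some libraries on 5 or fewer. An exact permutation test of 3 against 3 libraries cannot go below p = 0.1, two-sided. Against scrambled probes miR-3605-3p had a log2 difference of 4.51 (limma, SE 2.11, adjusted p = 0.526). It passed without EVEN replicate 3, the X1-probe library in which it had no read (limma, log2 difference 5.38, adjusted p = 0.0334), when 1.29% of the 233 tested names were called higher. Over its 16 alternatives the adjusted p ran from 0.0334 to 0.759. Its mean of 368 ± 242 RPM (SD, n = 6) was under the 3-read value of the scrambled library, so no fold is given.

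miR-4792 and miR-3960 completed the members found in every library. miR-4792 was at 647, 845 and 988 RPM with ODD, 430 (4 reads), 690 and 1049 RPM with EVEN and 430 RPM (2 reads) with scrambled probes. All 6 X1-probe libraries were above the scrambled one, EVEN replicate 1 by under 1 RPM, and the log2 difference of 0.77 did not pass (limma, SE 0.79, adjusted p = 0.673). miR-3960, known from osteoblast differentiation, was at 277, 225 and 247 RPM with ODD, 323, 207 and 839 RPM with EVEN and 430 RPM with scrambled probes. EVEN replicate 3 stood apart with 4 reads.

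**Figure D4:**
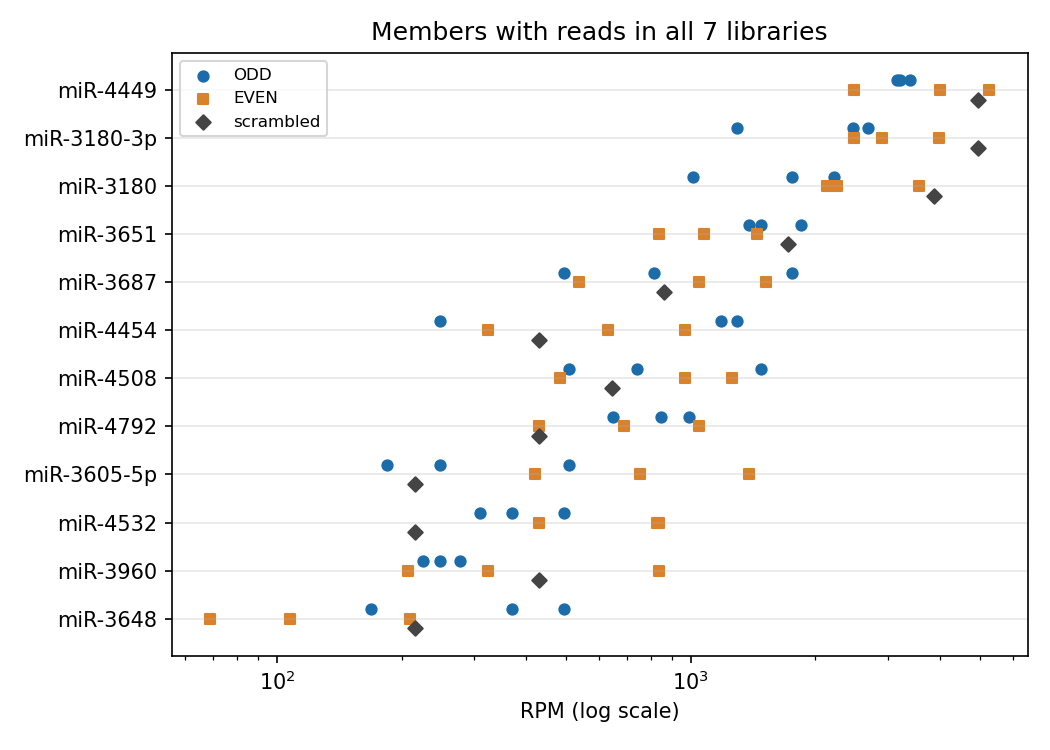
RPM on a log scale (horizontal axis) of the 12 members with reads in all 7 libraries; each point is a library, with ODD as circles, EVEN as squares and scrambled as diamonds. The scrambled diamond lies right of all X1-probe points for miR-3180-3p and miR-3180 and left of or level with them for miR-4792 and miR-4532.

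Of the other members with 10 or more reads, miR-3615 (18 reads) lies inside the span of NHERF1, a membrane scaffold gene. It was at 462, 169 and 0 RPM with ODD, 323, 69.0 and 420 RPM with EVEN and 215 RPM with scrambled probes. miR-3168 had 5, 3 and 1 reads with ODD, 2, 0 and 1 with EVEN and 1 with scrambled probes. miR-4286 had 1, 6 and 0 reads with ODD, 0, 4 and 1 with EVEN and 0 with scrambled probes. None showed a separation of the groups. miR-4448, with 13 reads, was below the scrambled library in 6 of 6 libraries, at 277, 113 and 247 RPM with ODD, 0, 138 and 210 RPM with EVEN and 430 RPM with scrambled probes, from 2 reads. Its log2 difference was -1.88 (limma, SE 2.06, adjusted p = 0.673), and -1.18 without EVEN replicate 1, where it had no read.

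Capture by X1 probes was set against capture by scrambled probes. A name was tested where it had 10 RPM or more in 3 or more libraries, true of 242 names and 35 members. Since 1 read was worth 28.2 RPM or more, a single read in each of 3 libraries was enough. A difference was called at a Benjamini-Hochberg adjusted p of 0.05 over all 242. By limma, 0 of the 35 members were higher, against 0.826% of all tested names, and 0 were lower, against 0%. At an unadjusted p of 0.05, 2 members were higher (miR-3180-5p and miR-3605-3p) and 1 lower (miR-3180-3p), against 7.02% and 1.65% of all tested names. Both of the higher members had no scrambled read and passed the filter through X1-probe libraries alone, so their direction was fixed. The scrambled group is 1 library, and its spread was taken to be that of the other groups. On simulated counts with known changes this comparison called unchanged names well more often than its adjusted p allows, and in both comparisons most of the changed names were missed. Those counts were Poisson draws from a pooled profile, with no spread between captures. Each library was rescaled after the changes, which shifts unchanged names, and changed names that failed the filter counted as missed. How far the simulation carries to the real libraries was not tested. A call against scrambled probes, including that of miR-3605-3p without EVEN replicate 3, is therefore given less weight than its adjusted p states. A count of 0 does not show that members did not differ.

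The sign of most differences followed the scrambled reads. Of the 35 tested members, 21 had a log2 difference above 0, and 15 of these had 0 scrambled reads, where the filter fixed the direction and the pseudocount sets the size. Among the 20 tested members with scrambled reads, 6 were above 0 and 14 below. Over all 242 tested names 127 were above 0, and 31.8% had 0 scrambled reads, against 42.9% of the tested members. Among all tested names with scrambled reads, 50 were above 0 and the larger part below. The median of names with scrambled reads was -0.54 for members and -0.46 for all tested names. Keeping only names with a scrambled read favours values below 0, so nothing is read from this split. The median over the 35 was 0.77, and -1.33 with the scrambled value of the 15 raised to 3 reads; over all 242 names the same medians were 0.096 and -1.14. Among all 85 members, 3 were above the scrambled library in all 6 X1-probe libraries, against 5.62% of all 480 names, and 9 were below it in all 6, against 15.2%. The 3 were miR-4792, miR-4532 and miR-3180-5p. The 9 were miR-3180-3p, miR-3180, miR-4448, miR-4466, miR-3065-5p, miR-3176, miR-3661, miR-4745-3p and miR-3134. These shares, 3.53% and 10.6% of members, were no higher than the background.

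**Figure D5:**
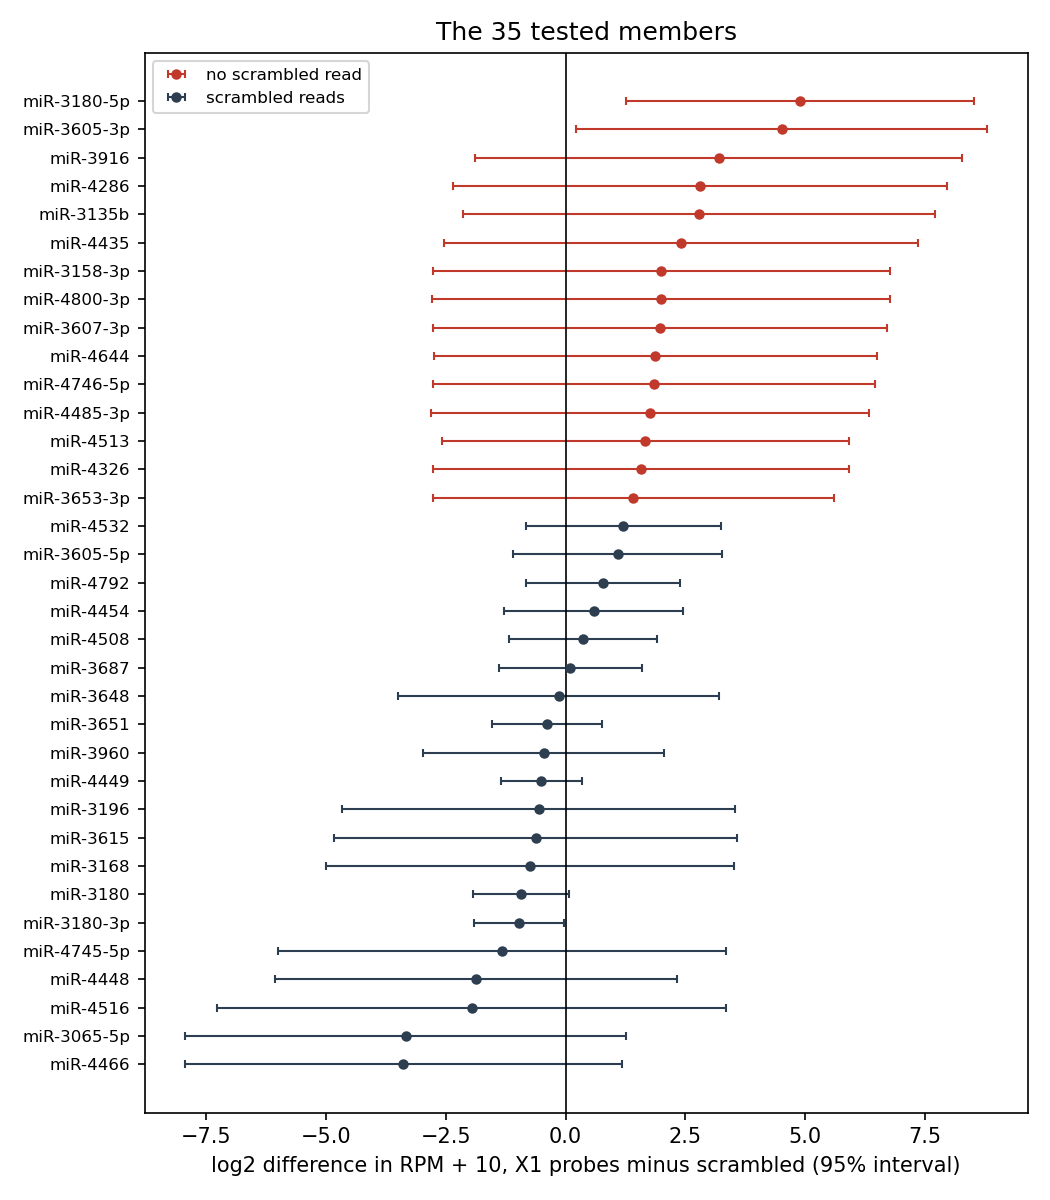
Log2 difference in RPM + 10 (horizontal axis), X1 probes minus scrambled, with limma 95% intervals, for the 35 tested members. The 15 members with no scrambled read lie at the top, from miR-3180-5p at 4.89, and the narrowest intervals belong to the abundant miR-4449, miR-3180-3p and miR-3180.

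Of the 9 members below the scrambled library in all 6 X1-probe libraries, miR-3661, miR-4745-3p and miR-3134 had scrambled reads alone, with 3, 2 and 1. They were too rare to be tested. miR-3661 lies inside the span of PPP2CA, the catalytic subunit of protein phosphatase 2A, and its 3 reads were worth 646 RPM (exact 95% interval 133 to 1885 RPM). With no filter all 3 were called lower by limma, which has no weight: they were picked for reads in that 1 library, and all X1-probe values are 0. In that fit 1.88% of all 480 names were called lower, while 0 members and 0.625% of all names were higher. For miR-3134 the call came from a single read. miR-4466, inside the span of ARID1B, had 2 reads in ODD replicate 2, 2 in EVEN replicate 2 and 1 in the scrambled library. miR-3065-5p, whose hairpin is the complement of that of miR-338, had 1 read each in ODD replicate 1, EVEN replicate 1 and the scrambled library. Both miR-4466 and miR-3065-5p met the filter only with the scrambled read counted, so nothing is read from their direction. Their log2 differences, -3.39 and -3.34, did not pass (limma, adjusted p = 0.673 for each).

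Entries from miR-3115 to miR-3202 counted 16 and held 430 reads (29.0% of member reads), all but 66 of them under the 3 names of miR-3180. That total may also count reads under both miR-3180-3p and miR-3180. The 16 entries had a median of 3 reads, and 5 had 10 or more. Of 7 tested, 0 passed in either comparison, with a median log2 difference of -0.57 against scrambled probes. Without the miR-3180 names the other 13 summed to 870 ± 512 RPM over the X1-probe libraries (SD, n = 6), against 861 RPM in the scrambled one.

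Both probe sets were made for BRAF-X1, and ODD captures were also set against EVEN captures. By limma 0 of the 35 members were higher with ODD probes, against 0% of all tested names, and 0 were lower, against 0.413%. At an unadjusted p of 0.05, 1 member was higher (miR-4513) and 0 lower, against 2.07% and 2.48%. miR-4513 met the filter only through its 1 read in each ODD library, so its direction was fixed and nothing is read from that count. Among all 85 members, 2 had all ODD libraries above all EVEN libraries, miR-3135b and miR-4513, against 1.88% of all names. None had all ODD libraries below, against 1.67%.

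miR-3135b was read 3, 3 and 2 times with ODD, 0, 1 and 0 times with EVEN and 0 times with scrambled probes. That was 285 ± 205 RPM for ODD and 23.0 ± 39.8 RPM for EVEN libraries (SD, n = 3 each; limma, log2 difference 3.59, SE 1.83, adjusted p = 0.909). miR-4513, inside the span of CSK, a kinase that restrains Src, had 1 read in each ODD library and 0 elsewhere, and its fitted difference restates the filter. miR-3135b likewise would not have met the filter without its ODD reads. Each pattern rests on fewer than 10 reads.

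The 65 members with fewer than 10 reads held 158 reads together, 10.7% of the set. Their summed level was 2192 ± 900 RPM over the X1-probe libraries (SD, n = 6), against 2152 RPM in the scrambled one, a difference within the spread of the X1-probe libraries. Some, picked for their seed with their reads known, carry the seed of other listed names: miR-4429, read once in ODD replicate 1, has the seed of miR-320b, miR-320c and miR-320d, miR-3125 and miR-3916 share a seed with miR-6859-5p, and miR-3127-3p has that of miR-6756-3p. A shared seed is a description of the letters only.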

How the data were processed

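Small RNA reads from 7 captures were used. The authors deposited RPM per hairpin and mature microRNA. The tools named by the submitters' processing notes are cutadapt 1.2.1 and CASAVA 1.8. Aligner, counting rule, annotation and build: each is not given in the sources used here. RPM was checked as the unit on the values: every column summed to 1000000, and 100% of values were whole multiples of 1 read (tolerance 1e-06 reads). The file writes decimal commas. Of several rows of a mature name, the highest was kept. limma 3.58.1 in R 4.3.3 was fitted to log2(RPM + 10) over all 242 tested names, with a mean per group, eBayes with a trend (4 residual degrees of freedom, prior 28.65) and Benjamini-Hochberg adjustment, two-sided. Fold changes are on that scale, which understates changes of low names and, where a library has 0 reads, is set by the pseudocount. Floors are 3 reads. Reads are not independent molecules, so neither floors nor intervals cover more than counting error. Whether replicates were separate cultures is not stated beyond independent captures, so p-values refer to these captures only. With a prior of 28.65 against 4 residual degrees of freedom, they rest mostly on the spread fitted over all tested names. The lone scrambled library adds none. Members were named if they had 10 or more reads, reads in all 7 libraries, scrambled reads alone, a call, or were among the 4 largest differences each way with groups that did not overlap. Members and lists were chosen with earlier results of these data known. The fit was tested on simulated Poisson counts without spread between captures. There it called too many unchanged names against the lone scrambled library and missed most changed names in both comparisons. It was kept as planned. The number in the titles was not taken as pairing, though the descriptions give ODD and EVEN libraries of like number the same number. Libraries of like number deviated with correlations of -0.044, 0.072 and 0.019, and those of unlike number with -0.103 to 0.069. Most names had few reads, and counting error can hide a shared culture or day, so this check cannot exclude pairing. The descriptions number the scrambled library 12, as they do replicate 3 of both probe sets; a lone library has no deviation to check. Alternatives covered pseudocount, filter, scaling, trend, block, hairpin rows and left-out libraries; the planned count test in edgeR was not run.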

Additional observations from a re-analysis of the deposited data

Results flagged for a closer look

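Among 29 sets of 6 X1-probe values, 2 held a library far from the others by Dixon's test. Chance gives about 1 in 20 where values are continuous and normal. These values move in steps of 1 read, so that rate does not hold here and the count is a description. The 29 include miR-3661, miR-4745-3p and miR-3134, whose X1-probe values are all 0 and could not be flagged. miR-3960 had 839 RPM (4 reads) in EVEN replicate 3 against 207 to 323 RPM in the other X1-probe libraries. miR-4513 had 247 RPM in ODD replicate 3, which is 1 read in the shallowest library, and at most 92.4 RPM in the others.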

How the results depend on the processing

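The count of members higher with X1 probes was 0 and ran from 0 to 1 when single replicates were left out (miR-3605-3p, without EVEN replicate 3). The count lower was 0, and 3 with no filter, where names with scrambled reads alone enter the test. With the replicate block, 0 members passed in either comparison, and the differences from scrambled probes of miR-4449, miR-3180, miR-4448 and miR-4792 moved by over 1.5 times, to -0.27, -0.46, -0.89 and 1.22. The pseudocount moved rare members further. At pseudocounts of 1 and 250, miR-3180-5p was at 8.16 and 1.18, miR-3605-3p at 7.25 and 1.19, and miR-3065-5p at -5.54 and -0.73. For ODD against EVEN, miR-3135b was at 5.79 and 0.91. Both ODD against EVEN counts stayed at 0 in all 16 alternatives. None of the 14 single-member differences changed sign. In most of them the groups did not overlap or the member had no scrambled read. Leaving out a library or changing the pseudocount could not turn the sign of those, so nothing is read from this. The summed share with 1 row per name as the total was 2.595% for X1, 2.461% for ODD, 2.729% for EVEN and 2.989% for scrambled probes. Without miR-4449 it was 1.54%, 1.482% and 1.743% for X1, ODD and scrambled probes. Without miR-3180 it was 1.682% for X1 and 1.851% for scrambled probes. With at least 2 reads, 21.67 (X1), 24.33 (ODD), 19 (EVEN) and 12 (scrambled) members were detected on average. At the common depth the numbers were 23.65, 25.09 and 22.43 for X1, ODD and scrambled probes. Pseudocount 250, the fits without replicate 3 of both sets and the shares without miR-3180 or miR-4449 were chosen after seeing the data. The edgeR alternative was not run. In the 3 shallowest libraries a count of 0 allows a level of up to 629 to 741 RPM.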

Other observations

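Reads were spread unevenly over the number blocks. The 15 members from miR-3100 to miR-3199 held 429 reads, the 12 from miR-4400 to miR-4499 held 415 and the 15 from miR-3600 to miR-3699 held 341, while the 14 from miR-4600 to miR-4699 held 20 reads in all. Of the 3 names left out of the set, miR-4492 had 70 reads, miR-3195 had 12 and miR-4497 had 2, the last in the scrambled library alone.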
